A study of Drosophila melanogaster with 3 samples.

Results

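The vacuolar proton pump (V-ATPase) genes of Drosophila melanogaster were followed in larval fat tissue in which the Hippo kinase (hpo) was raised or depleted. Members were all rows of the count files whose symbol starts with Vha, which gave 33 of 16509 genes. They were divided by role into 15 general subunits, 1 for each subunit or accessory protein of the pump, and 18 minor paralogs, the remaining copies of those subunits. There were 3 libraries, 1 per genotype. Dcg/+ carried the Dcg-Gal4 driver alone and served as control, Dcg > Hpo carried the driver with an Hpo transgene (myc-tagged in the study's methods), and Dcg > Hpo-RNAi (Dcg>Hpo-Ri in the labels) carried it with an RNAi construct against hpo. All 3 genotypes therefore shared Dcg-Gal4, which takes its pattern from a collagen gene and is active in fat body and also in blood cells. RNA came from pooled fat tissue of larvae at their last instar, whose sex was not given.

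The V-ATPase is a rotary pump that spends ATP to move protons into lysosomes, endosomes and secretory vesicles, or out across the plasma membrane. Its cytosolic V1 part holds the catalytic A and regulatory B subunits, the D and F subunits of the rotor, and the C, E, G and H subunits of the stator. Its membrane V0 part holds the proteolipid ring of c and c'' subunits, the large a subunit that forms the proton path, and the d and e subunits. In Drosophila a broadly used gene for most subunits stands beside further copies with restricted patterns, several of them known from the testis, and the pump is best known for fluid secretion by the Malpighian tubule, the renal organ of the fly. In the fat body, a store and a metabolic centre, lysosomal acidification serves autophagy and nutrient sensing.

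Library totals ranged from 21918672 to 23524682 counts, from 3′-end (QuantSeq) libraries. Runs of 3 values are given below in the order control (Dcg/+), overexpression (Dcg > Hpo) and knockdown (Dcg > Hpo-RNAi). hpo itself had 289, 11568 and 182 counts, ratios of 37.8 and 0.587, the directions the labels give. The 7 fat body markers, the larval serum proteins among them, held 18.4 to 19.4% of each library. With 1 library per genotype there was no estimate of the spread between animals and no test between genotypes. Each ratio below is the ratio of 2 shares of library totals, printed with an exact (Clopper-Pearson) 95% interval that covers counting error only. A gene was called higher or lower at a ratio of at least 2 or at most 0.5, with an interval excluding 1 and at least 10 counts in either library. In such bulk libraries fewer cells of a type and less RNA per cell cannot be told apart.

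The 33 genes were spread over a wide range of levels. In Dcg/+ the general subunits lay between 12.9 CPM (counts scaled to a common library total) for Vha100-2 and 326 CPM for Vha16-1, with a median of 75.2 CPM, at percentile 94.5 of all genes. The minor paralogs lay between 0.0912 CPM for VhaM9.7-a and 38.6 CPM for Vha100-1, with a median of 3.76 CPM, at percentile 58.1 of them. The 2 sets met at their edges, since Vha100-1 and Vha16-3 stood above Vha100-2. Reads of such libraries come from transcript ends, so that CPM does not rise with length by design. Division by the length of the longest transcript thus favours short genes, and on that scale the sets overlapped more widely. Vha16-3, at 45.0 CPM per kb in Dcg/+, then stood above 8 of the 15 general subunits, and 6 minor paralogs stood above Vha100-2, at 4.24 CPM per kb. Under overexpression the median of the minor paralogs was 0.344 CPM, and under knockdown 4.02 CPM, while that of the general subunits was 89.2 and 64.9 CPM. Of the 18 minor paralogs 5 had 0 counts in Dcg > Hpo, and none had 0 in the other libraries.

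**Figure D1:**
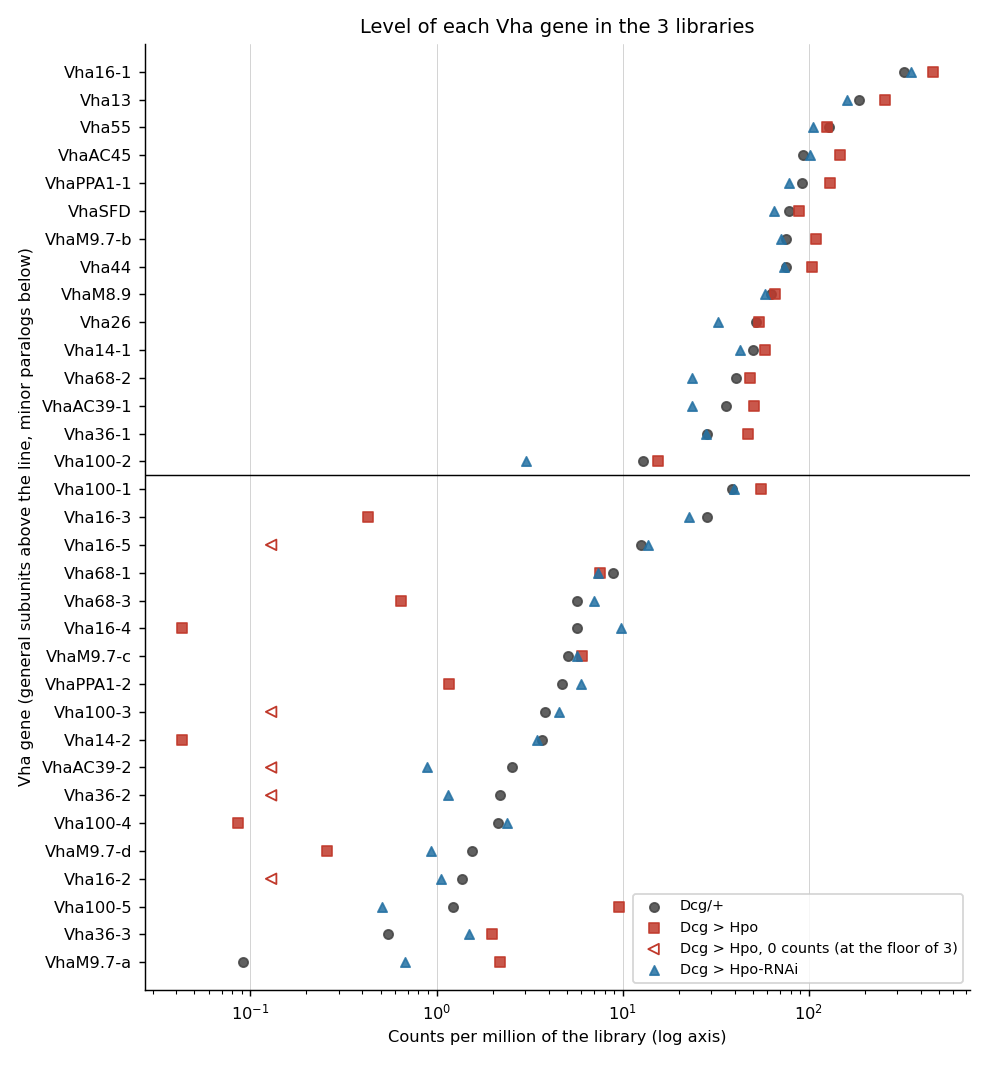
Level of each Vha gene in CPM, on a log axis, with 1 point per library and no error bars. General subunits stand above the line and minor paralogs below, each ordered by the Dcg/+ level. Open triangles mark the 5 genes with 0 counts in Dcg > Hpo, drawn at the floor of 3 counts. Most Dcg > Hpo points of the minor paralogs lie far to the left of the other libraries, while those of the general subunits lie close to them.

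Taken as a whole, Vha counts made up 0.147% (32176 counts), 0.185% (43047 counts) and 0.135% (31793 counts) of the libraries. The general subunits alone held 0.134, 0.177 and 0.122% in the same order. Their summed ratio was therefore 1.32 (1.30 to 1.34) under overexpression and 0.913 (0.898 to 0.928) under knockdown. The minor paralogs moved differently, with 0.0129, 0.00852 and 0.0129% of the library. As a share of all Vha counts they made up 8.77% (8.47 to 9.09) of the control, 4.60% (4.40 to 4.80) of the overexpression and 9.55% (9.23 to 9.88) of the knockdown library. Without Vha100-1, the most abundant of them, these shares were 6.14, 1.62 and 6.61%.

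By gene, 3 of the 33 members were called higher in Dcg > Hpo, where 18.2% of the 11834 measured genes were, and 12 were called lower, where 22.8% of the measured genes were. All 15 calls fell on minor paralogs. In Dcg > Hpo-RNAi, 2 members were called higher against 7.81% of the 11521 measured genes, and 3 were called lower against 9.09%. The share called higher or lower in the knockdown was thus near that of all genes, and in Dcg > Hpo the minor paralogs stood at 66.7% called lower. Both comparisons use the same Dcg/+ library, so that an error in it enters both. VhaM9.7-a, called higher in both, had 2 control counts and passed the count filter only through the other library of each comparison.

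No general subunit was called in Dcg > Hpo. An interval wholly above 1 was found for 12 of the 15, the other 3 had an interval that held 1, and the ratios ran from 0.975 for Vha55 to 1.65 for Vha36-1. Their median log2 ratio was 0.46, where the median of all measured genes was 0.09. With other library scalings the median of all genes moved to between -0.08 and 0.09, and the general subunits stood above it by 0.15 to 0.37 on the log2 scale. The number of general subunits with a ratio above 1 went from 14 to 12 with TMM or median-of-ratios factors and to 10 with quantile normalization. In Dcg > Hpo-RNAi only Vha100-2 was called, 10 general subunits had intervals wholly below 1, and the median log2 ratio was -0.23 beside 0.08 for all genes.

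Among the V1 subunits, Vha68-2, the general copy of the ATP-hydrolysing A subunit, had 895, 1127 and 555 counts. Its ratios were 1.19 (1.09 to 1.30) and 0.578 (0.519 to 0.643), so that its knockdown value came close to the limit of 0.5 without passing it. Vha55, the only gene of the B subunit in the list, had 2806, 2900 and 2491 counts, with ratios of 0.975 (0.926 to 1.03) and 0.827 (0.783 to 0.873). The levels of the partners in the catalytic ring were thus flat or only slightly different in Dcg > Hpo, and both were lower in Dcg > Hpo-RNAi by less than the limit of a call.

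The rotor subunit D came mainly from Vha36-1, with 627, 1099 and 659 counts and the highest general ratio in Dcg > Hpo, 1.65 (1.5 to 1.83). Its knockdown ratio was 0.979 (0.876 to 1.09). Vha14-1, the F subunit, had 1103, 1353 and 1006 counts, ratios of 1.16 (1.07 to 1.25) and 0.850 (0.779 to 0.926). Both rotor genes were highest in Dcg > Hpo.

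In the stator, Vha13 (subunit G) had 4082, 5954 and 3772 counts and Vha44 (subunit C, which joins and leaves V1 when the pump assembles or comes apart) had 1649, 2420 and 1727. Their ratios in Dcg > Hpo were alike, 1.38 (1.32 to 1.43) and 1.39 (1.30 to 1.48). Vha26 (subunit E) had 1147, 1252 and 763 counts, and VhaSFD (subunit H) had 1727, 2071 and 1526. For Vha26 the Dcg > Hpo ratio of 1.03 (0.950 to 1.12) held 1 and the knockdown ratio was 0.620 (0.565 to 0.680). VhaSFD had ratios of 1.13 (1.06 to 1.21) and 0.823 (0.768 to 0.882). The 4 stator genes therefore did not share 1 ratio in either comparison. Vha44 shares 548 bases with Hmgs on the other strand, and the counting strand was not given.

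In the membrane part, Vha16-1 encodes the c proteolipid that fills the ring and was the most abundant member of all by CPM. It had 7149, 10815 and 8334 counts, with ratios of 1.43 (1.39 to 1.47) and 1.09 (1.05 to 1.12). Per kilobase of its longest transcript it came second, at 109 CPM per kb in Dcg/+, behind Vha13 at 197.5 CPM per kb. Their longest transcripts have 2981 and 943 bases, and in such libraries division by length favours the shorter. VhaPPA1-1, the c'' proteolipid, had 2024, 3017 and 1855 counts, with ratios of 1.41 (1.33 to 1.49) and 0.854 (0.801 to 0.910). The ring genes thus had like ratios in Dcg > Hpo and stood on opposite sides of 1 in the knockdown.

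VhaAC39-1, the d subunit that couples the ring to the central stalk, had 788, 1182 and 558 counts, with ratios of 1.42 (1.29 to 1.55) and 0.660 (0.591 to 0.736). VhaM9.7-b, the small e subunit, had 1650, 2540 and 1679 counts, with ratios of 1.45 (1.37 to 1.55) and 0.948 (0.885 to 1.02). The accessory protein VhaAC45 had 2052, 3443 and 2397 counts, a ratio of 1.58 (1.5 to 1.67) in Dcg > Hpo, and 1.09 (1.03 to 1.16) in the knockdown. VhaM8.9, annotated as ATP6AP2 and related to the mammalian prorenin receptor, had 1371, 1537 and 1364 counts and ratios of 1.06 (0.983 to 1.14) and 0.927 (0.859 to 1.0). Of these genes only VhaM8.9 had a Dcg > Hpo interval that held 1.

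Vha100-2 was the general subunit that stood apart. This copy of the large a subunit had 283, 358 and 71 counts, by far the lowest value being that of the knockdown. The ratio was 1.19 (1.02 to 1.40) in Dcg > Hpo and 0.234 (0.178 to 0.304) in the knockdown, where it was the only general subunit called. The gene (FBgn0028670, BDGP6 arm 3R, 18390323 to 18399169, minus strand) shares 2175 bases with Vti1b on the plus strand. Vti1b, a SNARE of the endosome, had 285, 336 and 338 counts, and its knockdown ratio of 1.11 (0.941 to 1.30) held 1.

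Counts over the whole of V1, minor copies included, were 14496, 18413 and 12981, and over V0 14257, 19654 and 15051. V1 thus made up 50.4% (49.8 to 51.0) of V1 and V0 counts in the control, 48.4% (47.9 to 48.9) under overexpression and 46.3% (45.7 to 46.9) under knockdown. These intervals cover counting error only. Vha16-1 alone gave 7149, 10815 and 8334 of the V0 counts, so that the shares depend strongly on 1 gene. No sum of transcripts gives the stoichiometry of the assembled pump.

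**Figure D2:**
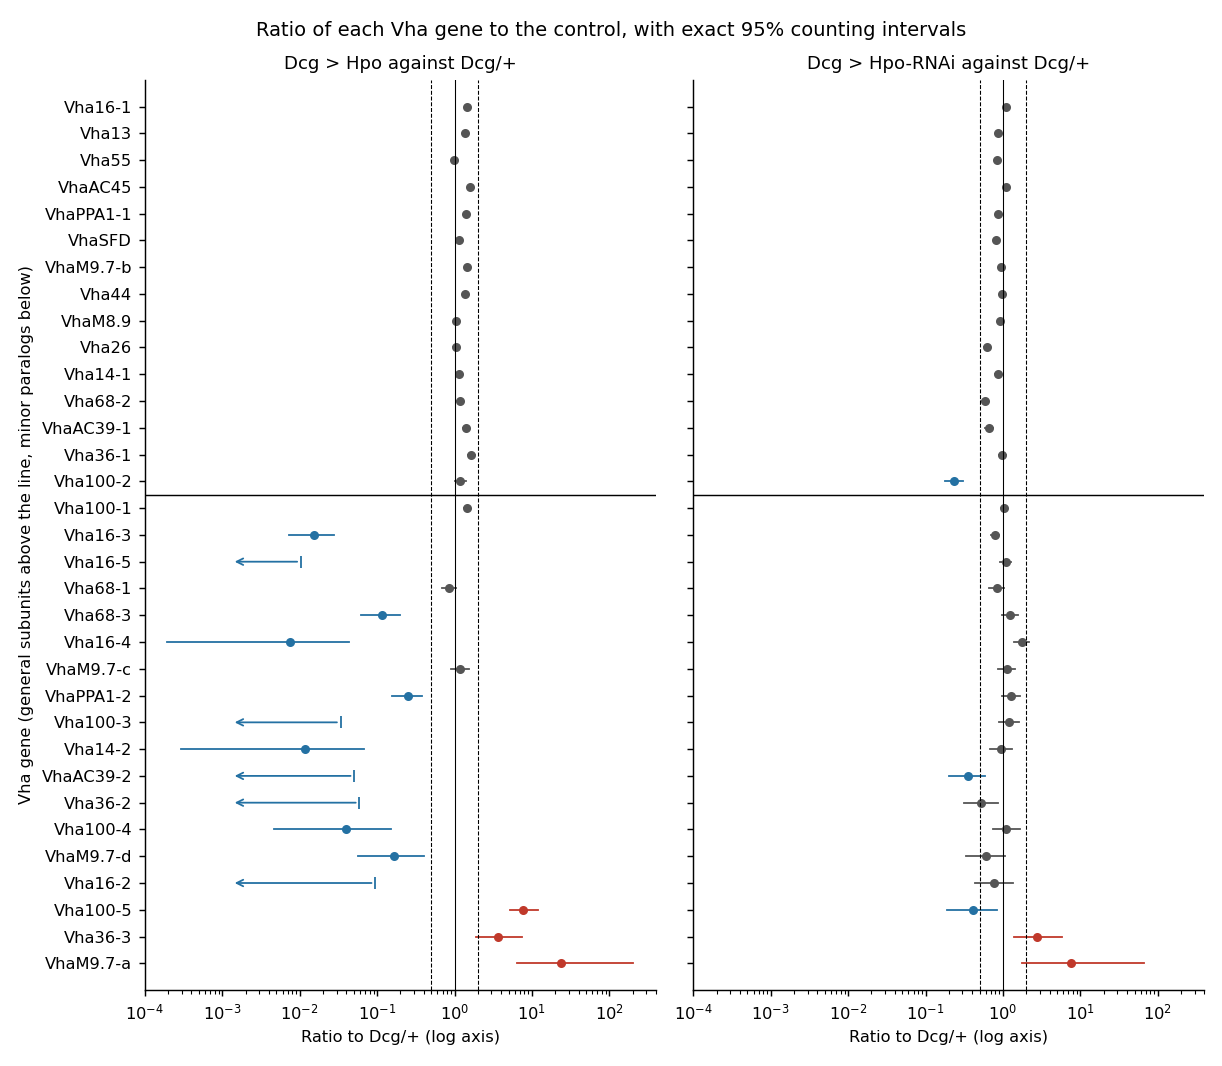
Ratio of each Vha gene to Dcg/+ on a log axis in Dcg > Hpo (left) and Dcg > Hpo-RNAi (right), with exact 95% intervals that cover counting error only. Red marks genes called higher, blue genes called lower and grey genes not called, dashed lines stand at 0.5 and 2, and arrows run left from the ratio at the floor of 3 counts for genes with 0 counts in Dcg > Hpo. On the left 12 minor paralogs lie below 0.5 and 3 above 2, while the general subunits lie between 0.975 and 1.65. On the right Vha100-2 is the general subunit below 0.5.

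The minor paralogs held the changes in Dcg > Hpo. Their median log2 ratio was -3.56, or -3.23 with the 5 genes at 0 counts set to the floor of 3, beside 0.09 for all measured genes. In Dcg > Hpo-RNAi the median was 0.08, the same as that of all genes. The 12 genes called lower in Dcg > Hpo summed to 1629, 62 and 1731 counts, ratios of 0.0359 (0.0274 to 0.0463) and 0.990 (0.925 to 1.06). Since these genes were picked by that call, the choice set their low ratio in Dcg > Hpo. The other 6 summed to 1194, 1917 and 1305 counts.

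The c proteolipid has 4 minor copies, Vha16-2 to Vha16-5, and all 4 were lower in Dcg > Hpo. Vha16-3 had 624, 10 and 534 counts, a Dcg > Hpo ratio of 0.0151 (0.00722 to 0.0280). Vha16-5 had 274, 0 and 321 counts, which made it at least 96.8-fold lower against a floor of 3 counts. Vha16-4 had 124, 1 and 231 counts with a ratio of 0.00761 (0.000191 to 0.0432), and Vha16-2 had 30, 0 and 25 counts, at least 10.6-fold lower. In the knockdown none of the 4 was called, and Vha16-4 had the highest ratio, 1.74 (1.39 to 2.18).

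Among the a subunits the copies went in different directions. Vha100-3 had 84, 0 and 107 counts, at least 29.7-fold lower in Dcg > Hpo. Vha100-4 had 47, 2 and 56 counts, with a ratio of 0.0402 (0.00473 to 0.153). Vha100-3 lies inside sano, which is on the other strand and had 17, 110 and 48 counts, and Vha100-4 shares 47 bases with cona on the other strand, which had 77, 2 and 79. The host of Vha100-3 was thus high where Vha100-3 was at 0, while cona, a gene of the meiotic synaptonemal complex, was low together with Vha100-4.

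Vha100-5 was the only member called in opposite directions, with 27, 222 and 12 counts. Its ratios were 7.76 (5.19 to 12.0) and 0.414 (0.191 to 0.845). An antisense RNA, asRNA:CR44144, lies within the gene and had 41, 218 and 15 counts, nearly the same numbers. Since the strand used in counting was not given, reads of the gene and of its antisense partner cannot be told apart. Vha100-1, the copy known for its role in synaptic vesicles of neurons, had 846, 1283 and 935 counts and was not called, with ratios of 1.43 (1.31 to 1.56) and 1.03 (0.937 to 1.13). Its Dcg > Hpo ratio was like those of the general subunits.

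In V1, Vha68-3 (subunit A) had 124, 15 and 165 counts and a Dcg > Hpo ratio of 0.114 (0.0620 to 0.196), whereas Vha68-1 had 195, 175 and 173 counts and ratios of 0.847 (0.686 to 1.04) and 0.827 (0.670 to 1.02). The minor copies of the A subunit therefore parted, 1 called lower and 1 not called. Vha14-2 (subunit F) had 81, 1 and 82 counts, with a ratio of 0.0117 (0.000291 to 0.0668) in Dcg > Hpo and 0.943 (0.685 to 1.30) in the knockdown.

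The minor D subunits went opposite ways in Dcg > Hpo. Vha36-2 had 48, 0 and 27 counts, at least 17.0-fold lower there, and 0.524 (0.314 to 0.857) in the knockdown, a value that TMM or median-of-ratios scaling moved past 0.5. Vha36-3 had 12, 46 and 35 counts and was called higher in both comparisons, with ratios of 3.62 (1.89 to 7.5) and 2.72 (1.38 to 5.75). Both intervals of Vha36-3 reached below 2, and both genes lay near the low end of the counts that can be measured.

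The remaining V0 copies were also few in counts. VhaAC39-2 (subunit d) had 56, 0 and 21 counts and was called lower in both comparisons, at least 19.8-fold in Dcg > Hpo and with a ratio of 0.349 (0.201 to 0.586) in the knockdown. VhaPPA1-2 (subunit c'') had 103, 27 and 140 counts, a Dcg > Hpo ratio of 0.247 (0.156 to 0.381). That ratio was the highest of the 12 lower genes. Of the e subunits VhaM9.7-d had 34, 6 and 22 counts, with a Dcg > Hpo ratio of 0.167 (0.0572 to 0.401). VhaM9.7-a had 2, 51 and 16 counts and was called higher in both, at 24.1 (6.33 to 204) and 7.45 (1.75 to 66.8), intervals made wide by the 2 control counts. It passed the filter of 10 counts only through the libraries where it was high, so it could not have been called lower. VhaM9.7-c, with 112, 140 and 134 counts, was not called in either.

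The calls changed the paralog make-up of the 8 subunits that have several genes. For the c proteolipid Vha16-1 held 87.2% (86.4 to 87.9) of control counts, 99.9% (99.8 to 99.9) under overexpression and 88.2% (87.6 to 88.9) under knockdown. For F, Vha14-1 held 93.2, 99.9 and 92.5%, and for c'' VhaPPA1-1 held 95.2, 99.1 and 93.0%. In Dcg > Hpo these subunits were thus encoded almost wholly by the general copy. For d, VhaAC39-1 held 93.4% in the control, all 1182 counts in Dcg > Hpo and 96.4% in the knockdown. With 0 of 1182 counts in Dcg > Hpo, the exact 95% interval of VhaAC39-2 reached up to 0.312%.

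Of the subunits with several genes, A and a differed most from the control in the knockdown, by the share of the general copy. Vha68-2 held 73.7% (71.1 to 76.2) of A counts in the control, 85.6% (83.6 to 87.4) under overexpression and 62.2% (58.9 to 65.3) under knockdown, where Vha68-3 reached 18.5%. For the a subunit Vha100-1, and not Vha100-2, was the most abundant copy in every library, with 65.7, 68.8 and 79.2%. Vha100-2 held 22.0% (19.7 to 24.3) in the control, 19.2% (17.4 to 21.1) under overexpression and 6.01% (4.72 to 7.52) under knockdown. Vha100-5 held 2.10, 11.9 and 1.02%. The D and e subunits stayed above 90% general copy in each library, at 91.3, 96.0 and 91.4% for Vha36-1 and at 91.8, 92.8 and 90.7% for VhaM9.7-b.

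**Figure D3:**
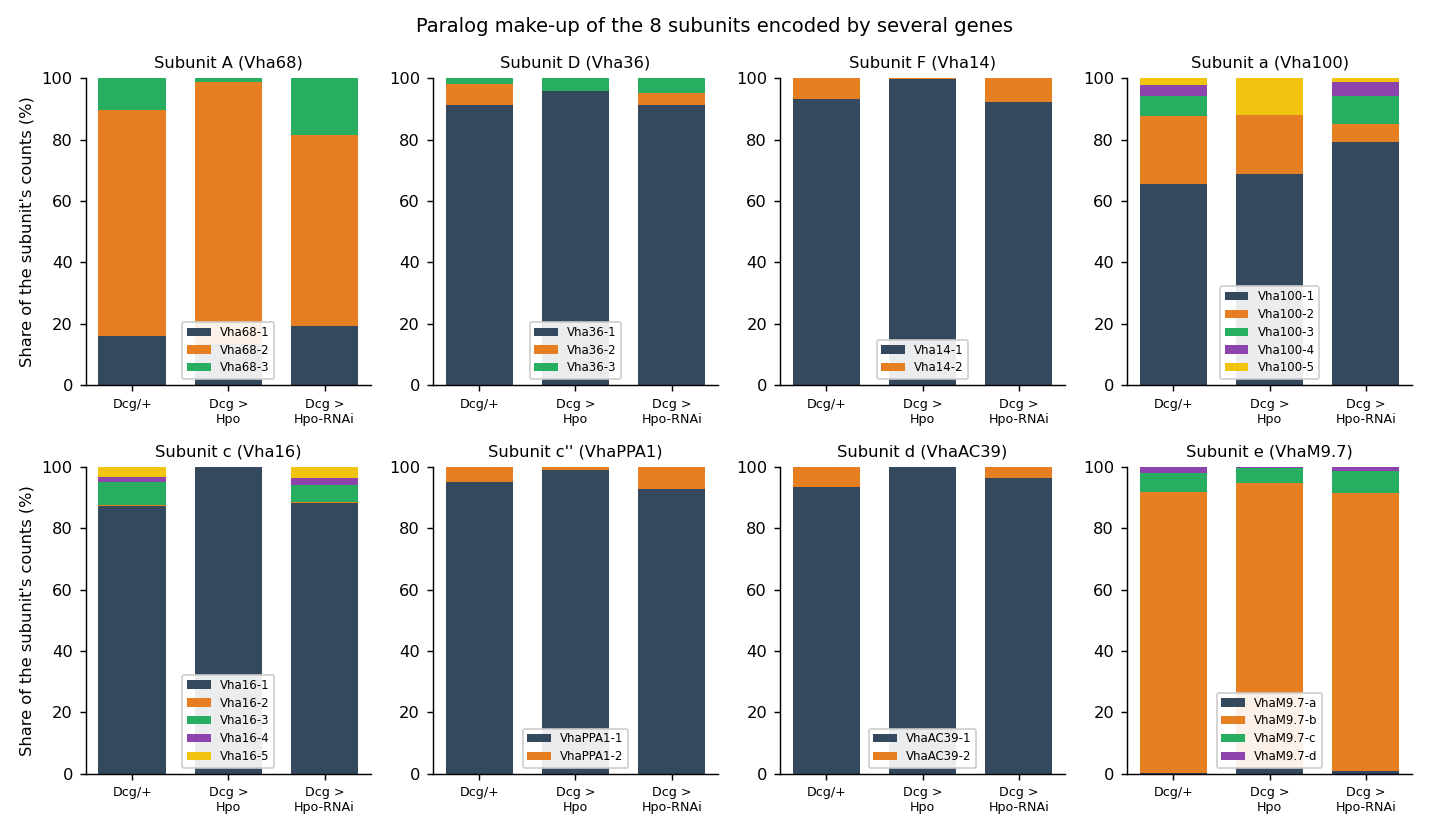
Share of each paralog, in percent, of the counts of its subunit in each of the 3 libraries, for the 8 subunits with several genes. Bars run from 0 to 100 and carry no error bars. In Dcg > Hpo Vha16-1, Vha14-1 and VhaAC39-1 fill 99.9, 99.9% and the whole of their bars, and in Dcg > Hpo-RNAi Vha100-2 shrinks to 6.01% of the a subunit.

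Marker lists of other tissues did not share a direction in Dcg > Hpo. Of 21 testis markers, which include protamine, dj and meiotic arrest genes, all 21 were called lower in Dcg > Hpo, beside 22.8% of all genes. Of these markers c-cup, can, sa, nht and aly were at 0 there, and the median log2 ratio of all 21 was -5.58. Their sum was 14758, 593 and 16865 counts, ratios of 0.0379 (0.0349 to 0.0412) and 1.07 (1.04 to 1.09). The 12 lower Vha genes, at 0.0359 and 0.990, were picked by their calls in Dcg > Hpo, so that choice set their low ratio there. All 18 minor paralogs summed to ratios of 0.662 (0.624 to 0.701) and 1.0 (0.952 to 1.06). The part of testis RNA in the Vha values was not tested.

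Several other lists went the other way in Dcg > Hpo. Of the markers measured, 7 of 7 gut, 7 of 8 neuron, 7 of 7 muscle and 3 of 5 Malpighian tubule genes were called higher. Over all measured genes that share was 18.2%. All 11 listed gut genes summed to 602, 25288 and 2072 counts. The count filter left out Jon99Ci (9, 0 and 0), Amy-p (4, 0 and 0), lab (2, 0 and 9) and Mal-A1 (1, 2 and 0). LysB (4, 1727 and 154), LysE (0, 389 and 7), the neuron gene fne (8, 563 and 24) and the tubule gene CapaR (0, 11 and 6) passed it only through Dcg > Hpo. The gut, neuron and tubule shares were thus set in part by the filter. The tubule list summed to 286, 1373 and 237 counts, of which Uro, urate oxidase, had 14, 1027 and 0. Without Uro the list summed to 272, 346 and 237, and ZnT35C, a zinc transporter, was called lower in Dcg > Hpo at a ratio of 0.304. Sums of the neuron list were 5346, 7113 and 5677 counts, set mainly by Syt1 (4454, 2553 and 4143), the neuron marker that was not called. Without Syt1 they were 892, 4560 and 1534. The muscle list summed to 2540, 24858 and 1068. By sum, these lists were highest in Dcg > Hpo, as were 14 of the 15 general subunits by share of the library total. Salivary glue genes took 5.01, 2.46 and 0.0665% of the libraries. With the marker lists of fat body, testis, gut, muscle, neuron and salivary gland removed from the totals, the general subunits held 0.176, 0.227 and 0.150% of what was left. Whether RNA of these tissues contributed to the Vha values was not tested.

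**Figure D4:**
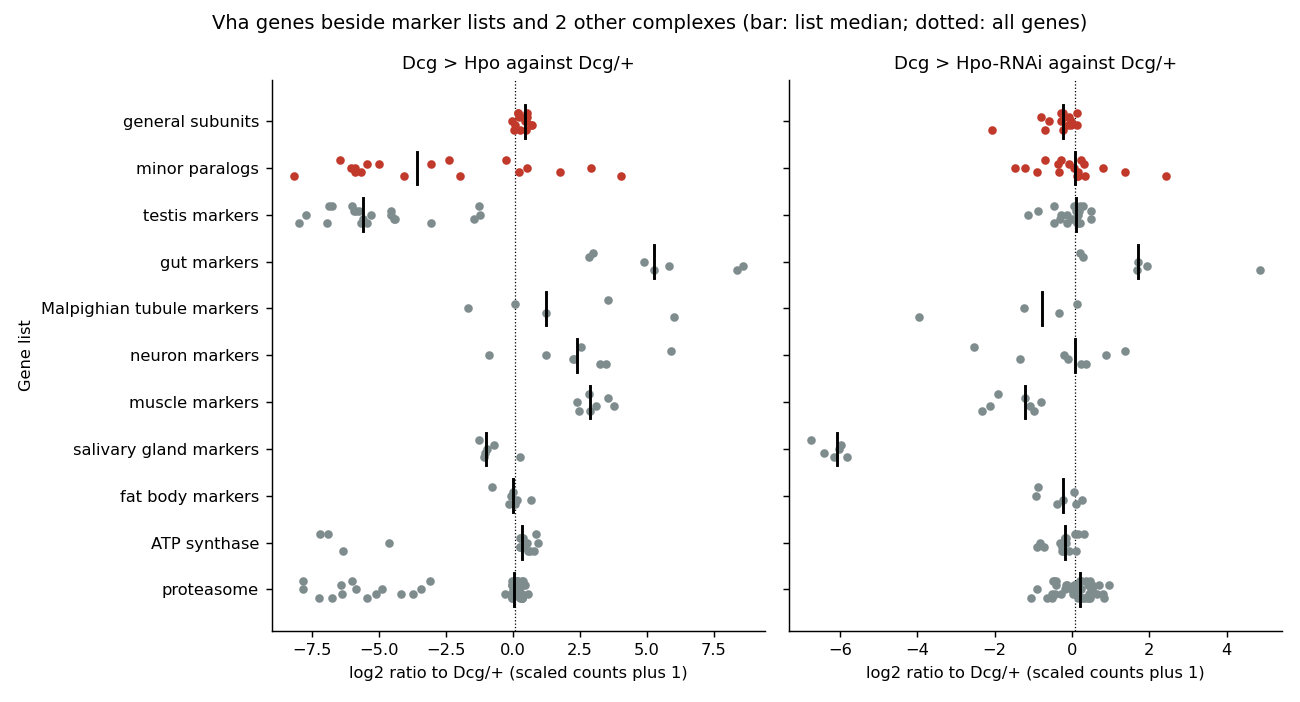
Log2 ratio to Dcg/+ of each measured gene, from scaled counts plus 1, for the Vha sets (red), the marker lists and 2 further complexes (grey) in Dcg > Hpo (left) and Dcg > Hpo-RNAi (right). Black bars are list medians and the dotted line is the median of all genes, 0.09 on the left and 0.08 on the right. On the left the 18 minor paralogs run from -8.17 to 4.05 with a median of -3.56, and the 21 testis markers from -7.98 to -1.24 with a median of -5.58. On the right their medians are 0.08 and 0.11.

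Some of the lower paralogs lie next to general copies on the chromosome. Vha68-3 (FBgn0032464, 2L, 12978786 to 12981293) starts 178 bases after the end of Vha68-2 on the same strand. Vha100-4 and Vha100-2 are 517 bases apart on 3R, and VhaPPA1-2 and VhaPPA1-1 are 2052 bases apart on the same arm. In each of these 3 pairs the minor gene was called lower in Dcg > Hpo and its neighbour was not called. Vha16-3 and Vha16-2, 985 bases apart on 3L (11473291 to 11473972 and 11474958 to 11475552), were both called lower.

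The sets also differed in gene structure. A single coding exon was annotated for 9 of the 18 minor paralogs and 3 of the 15 general subunits, beside 20.6% of the 13986 coding genes in the annotation. Of the 12 genes called lower in Dcg > Hpo, 7 have 1 coding exon and 10 have 1 annotated transcript, and of the 6 other minor paralogs 2 and 1 do. Median coding length was 960 bases for the general subunits and 691 for the minor paralogs. Another annotated gene overlaps 7 minor paralogs and 3 general subunits. VhaM9.7-c, for example, lies inside CG18675, on the other strand, with 62, 0 and 99 counts, and Teh2, on its own strand, with 0, 1 and 4 counts. Near-identical stretches between paralogs were not examined, and how reads that match several genes were counted was not given.

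For the pump's partners the shares over all genes were those above, 18.2% higher and 22.8% lower in Dcg > Hpo and 7.81 and 9.09% in the knockdown, and with so few partners their counts are given as a description. Of 12 matched genes (assembly and regulatory factors, the transcription factor Mitf that drives lysosomal genes in flies, and the Rag and Lamtor proteins that link the pump to TOR signalling) only CG31030, annotated as VhaAC45RP, was called, higher in Dcg > Hpo with 14, 81 and 7 counts and a ratio of 5.46 (3.07 to 10.4). Mitf had 121, 213 and 110 counts and a Dcg > Hpo ratio of 1.66 (1.32 to 2.09), and was not called. Log2 ratios of the 12 partners there ran from -0.48 to 2.37. Their median was 0.12, beside 0.09 for all measured genes. CG5421, a gene with the synonym VhaAC45-2 that the symbol rule leaves out and that was chosen after its values were seen, had 44, 0 and 57 counts.

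Lysosomal genes were read against the same shares of all genes, 18.2% called higher under overexpression and 7.81% under knockdown. Of 23 matched genes, 20 were measured in Dcg > Hpo and 2 were called higher, the hexosaminidase Hexo2 (145, 399 and 155 counts, ratio 2.60) and the lysosomal transporter spin (76, 242 and 67 counts, ratio 3.00). In Dcg > Hpo-RNAi 21 were measured and 2 (9.52%) were called higher, the mannosidase gene CG5322 (415, 257 and 1355 counts, ratio 3.04) and the galactosidase Gal (388, 328 and 854 counts, ratio 2.05). The medians were 0.01 and 0.06 on the log2 scale, beside 0.09 and 0.08 for all measured genes.

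Other complexes that pair general subunits with copies were set beside the pump. Among the 11834 genes measured for Dcg > Hpo, a lower call fell on 22.8% and a higher call on 18.2%. In the mitochondrial ATP synthase all 4 genes annotated as like (L) copies were called lower in Dcg > Hpo, and none of the other 12 was called. The lowest were CG12027 (ATPsynCF6L) with 141, 0 and 169 counts and CG7211 (ATPsynGL) with 340, 2 and 449. The highest ratios there, not called, were 1.92 for CG1746 (ATPsynC) and 1.84 for l(1)G0230 (ATPsyndelta). In the proteasome all 15 copies whose symbols end in T or R, with or without a number, were called lower and none of the other 32 was. The lowest were Prosbeta2R2 with 220, 0 and 126 counts and Prosalpha4T2 with 217, 0 and 323, and the highest ratios, not called, were 1.48 for Prosbeta5 and 1.35 for Rpt4. The median log2 ratio of the other genes in Dcg > Hpo was 0.47 for the ATP synthase and 0.19 for the proteasome, beside 0.46 for the general Vha subunits. In Dcg > Hpo-RNAi it was -0.17 for the ATP synthase and 0.24 for the proteasome, beside -0.23 for the general Vha subunits. In that comparison 1 proteasome copy, Prosbeta4R1 with 102, 0 and 52 counts, was called lower and no ATP synthase gene was. Among the 11521 genes measured for the knockdown, a lower call fell on 9.09% and a higher call on 7.81%.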

How the data were processed

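The deposited counts were read as raw counts of reads per gene for each of 3 QuantSeq libraries, with no normalization by the authors seen in the values. Per the labels the reads were placed on dm6. The aligner, counter and counting strand are not given in the sources used here. The extraction label names adult heads, whereas the sample labels and the study's methods name larval fat tissue.

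Counts were divided by library totals. Ratios, exact 95% intervals, calls and medians (log2 of scaled counts plus 1) were computed with Python 3.11.15 and scipy 1.17.1, and tested on simulated data. As alternatives, libraries were scaled with edgeR 4.0.16 (TMM), DESeq2 1.42.0 (median of ratios) or limma 3.58.1 (quantiles). Gene positions, transcripts and exons came from an Ensembl annotation of BDGP6, the dm6 assembly. Every Vha symbol was named, with partner and lysosomal genes where called, Mitf though not called and, of the complexes, examples with the largest changes. The members and lists were chosen with earlier results of these data known. Planned promoter motif and protein identity comparisons were not run.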

Additional observations from a re-analysis of the deposited data

How the results depend on the processing

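No paired analysis was possible because each genotype had 1 library, and no library could be left out. Of the 66 member ratios, 65 kept their call under TMM and under median-of-ratios factors and 66 under quantile normalization, the exception being Vha36-2, called lower in Dcg > Hpo-RNAi with log2 ratios of -0.99 and -0.98. The median of all genes moved by more than 0.1 in Dcg > Hpo, from 0.09 to -0.08 with TMM. There the general subunits' median log2 ratio of 0.46 became 0.28 with TMM, 0.33 with median-of-ratios factors and 0.23 with quantile normalization. In each of these settings the minor paralogs' median stayed negative in Dcg > Hpo. In Dcg > Hpo-RNAi it turned from 0.08 to -0.01 with TMM, where the median of all genes likewise turned from 0.08 to -0.005.

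In Dcg > Hpo the 3 higher calls became 5 at 1.5-fold and 2 with at least 50 counts, with the whole interval beyond 2-fold or among members that overlap no other gene. The 12 lower calls there became 8 with at least 50 counts and 8 among members that overlap no other gene, and stayed at 12 at 1.5-fold, at 3-fold and with the whole interval beyond 2-fold. In Dcg > Hpo-RNAi the 2 higher calls became 0 with at least 50 counts, 1 at 3-fold and 0 with the whole interval beyond 2-fold. The 3 lower calls there became 7 at 1.5-fold, 1 at 3-fold, 1 with the whole interval beyond 2-fold and 1 among members that overlap no other gene, an alternative chosen after seeing the data. Leaving out the count filter changed no count of calls and no median. With pseudocounts of 0.5 and 5 the minor paralogs' median in Dcg > Hpo was -3.71 and -2.81. Knockdown calls of minor paralogs rest on few counts.

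With the most abundant copy of each subunit taken as general, which exchanges Vha100-2 for Vha100-1, the general share was 0.136, 0.181 and 0.126% of the library in Dcg/+, Dcg > Hpo and Dcg > Hpo-RNAi, and the minor share 0.0103, 0.00454 and 0.00923%. Without the marker lists in the total, the general share was 0.176, 0.227 and 0.150% and the minor share 0.0169, 0.0109 and 0.0158%. The order of the libraries changed only for the minor share, between Dcg/+ and Dcg > Hpo-RNAi.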
